A study of Mus musculus with 4 samples.

Results

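The vascular endothelial growth factor (VEGF) system was followed through 10 genes chosen by name. They are the 5 ligand genes Vegfa, Vegfb, Pgf, Vegfc and Vegfd, and the 5 receptor and co-receptor genes Flt1, Kdr, Flt4, Nrp1 and Nrp2. All 10 were measured, each by 1 probe set, among 30723 genes in all. Vegfd is annotated under its older symbol Figf, and the probe set of Nrp1 also lists the microRNA gene Mir1903. RNA from the whole lungs of adult mice, matched for age, was run on 4 Affymetrix arrays. The 2 wild-type (WT) arrays come from mice of strain C57/BL6, and the 2 SCD arrays from transgenic sickle cell disease mice, whose strain is labelled SCD Tg. The sources used here give neither the transgenes nor the strain background of the SCD mice, nor the sex of any mouse, so that genotype and background cannot be told apart. The labels do not say that each array is a separate animal, and p-values measure the spread between these samples only.

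VEGF ligands are secreted dimers that drive the growth, survival and permeability of blood vessels and lymphatics. VEGF-A signals mainly through the receptor tyrosine kinase VEGFR2, the product of Kdr, while VEGFR1, the product of Flt1, binds VEGF-A, VEGF-B and placental growth factor and acts largely as a decoy. VEGF-C and VEGF-D act through VEGFR3, the product of Flt4, which is known for lymphatic growth, and the neuropilins Nrp1 and Nrp2 are co-receptors that also bind semaphorins. In the alveolus, epithelial type 1 cells are a known source of VEGF-A, and the aerocyte class of capillary cells is known for high Kdr.

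Values are log2 expression, and differences are SCD minus WT with the moderated standard error from limma (n = 2 arrays per group). A gene was called where its Benjamini-Hochberg adjusted p, over all 30723 genes, was under 0.05. By that rule 952 genes (3.10%) were called, 757 higher (2.46%) and 195 lower (0.635%) in SCD lung. The groups did not overlap, meaning that both SCD arrays lay on the same side of both WT arrays, for 47.7% of genes. At an unadjusted p under 0.05 (limma), 3268 of all genes were positive and 1867 negative. All 9 alveolar type 1 and all 9 alveolar type 2 marker genes had WT means above the median of the negative control probe sets (6.43). On the WT arrays the median of all genes was lower, at 5.90 and 5.86. That of 23 antigenomic background probe sets was 3.26 and 3.38, so that 6.43 is not the floor of the values. Between the groups, the median of 1324 exon control probe sets went from 10.01 and 10.15 (WT) to 10.26 and 10.29 (SCD), and that of 5222 negative controls from 6.48 and 6.47 to 6.31 and 6.28. With either SCD array left out, limma called 0 genes, with 3309 genes (without SCD replicate 1) and 3274 genes (without SCD replicate 2) at an unadjusted p under 0.05.

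Of the 10 genes, Vegfd rose in SCD lung (1.84-fold), 0 fell and 9 did not pass. The 3 genes with the next smallest p-values were Nrp1, Flt1 and Kdr, all of them with lower values on both SCD arrays than on both WT arrays. The start regions of these 4 genes are shown because the ligand gene that rose and the receptor genes with negative differences differ in base composition there. Each line gives the 250 bases before a RefSeq start site (GRCm38.p6), 5′ to 3′ along the gene's own strand. For Vegfd that site is the outer end of the annotated gene. For Flt1, Kdr and Nrp1 it lies inside the annotated gene, and so do their stretches, so that unlike regions are set side by side. Capitals mark a GC box (GGGCGG or, on the other strand, CCGCCC), a cyclic AMP response element (TGACGTCA) or a TATA box (TATAAA).
Vegfd (chrX:164373272-164373521, plus strand): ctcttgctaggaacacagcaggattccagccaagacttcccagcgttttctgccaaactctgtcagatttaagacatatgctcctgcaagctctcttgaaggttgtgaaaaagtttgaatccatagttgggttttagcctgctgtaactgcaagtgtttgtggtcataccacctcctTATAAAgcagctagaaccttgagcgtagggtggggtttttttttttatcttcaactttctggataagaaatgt
Flt1 (chr5:147726012-147726261, minus strand): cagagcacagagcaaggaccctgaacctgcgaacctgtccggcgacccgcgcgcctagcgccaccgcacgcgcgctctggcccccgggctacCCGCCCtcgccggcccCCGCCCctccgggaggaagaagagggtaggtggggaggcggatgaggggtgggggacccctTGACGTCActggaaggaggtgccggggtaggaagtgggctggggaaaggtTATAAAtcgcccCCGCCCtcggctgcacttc
Kdr (chr5:75978456-75978705, minus strand): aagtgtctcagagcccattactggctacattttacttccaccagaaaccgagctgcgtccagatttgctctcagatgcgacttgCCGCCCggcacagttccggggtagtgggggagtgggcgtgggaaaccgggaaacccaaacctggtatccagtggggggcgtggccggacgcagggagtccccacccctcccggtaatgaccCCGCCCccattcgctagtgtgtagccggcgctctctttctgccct
Nrp1 (chr8:128358823-128359072, plus strand): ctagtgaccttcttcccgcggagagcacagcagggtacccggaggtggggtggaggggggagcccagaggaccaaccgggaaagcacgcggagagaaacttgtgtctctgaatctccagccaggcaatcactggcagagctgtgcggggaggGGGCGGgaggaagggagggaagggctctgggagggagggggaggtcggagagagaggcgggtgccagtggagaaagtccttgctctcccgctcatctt

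The Vegfd stretch is 42.4% G or C and holds 2 CpG pairs. Those of Flt1, Kdr and Nrp1 are 70.4%, 61.6% and 64.4% G or C, with 23, 16 and 11 CpG pairs. Over all 32851 start regions of this length, the median was 52.4% G or C and 6 CpG pairs. RefSeq start regions were found for all 10 genes, 12 in all because Pgf and Vegfa have 2 each, and the other 11 lie between 59.2% and 76.4%. Vegfd and the second region of Pgf hold no GC box on either strand, while Flt1 holds 3, Kdr 2 and Nrp1 1. The other regions hold GC boxes as well, 5 in Nrp2, 4 in Vegfb, 3 in Flt4 and 2 in Vegfc. Those of Vegfa hold 2 and 1, and the first region of Pgf holds 2. A GC box occurs in 32.74% of all regions. Vegfd has a TATA box that begins at position -73 from its start site and Flt1 one at position -31, against 12.37% of all regions with such a match. Flt1 also holds the cyclic AMP response element, at position -81, a match found in 1.55% of regions. The hypoxia response core ACGTG (either strand) occurs in 16.57% of regions and, among the 10 genes, in the second Vegfa region. That region lies inside the annotated Vegfa gene, and the first Vegfa region, before the gene's outer end, has no such match. The AP-1 letters TGANTCA (either strand; 6.75% of regions) are in none of the 12. The ETS core GGAA (either strand) is in 93.45% of regions. It occurs at 3 places in the Vegfd stretch and at 4 places in each of the Flt1, Kdr and Nrp1 stretches. These are matches of letters in a short window and say nothing of binding.

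**Figure D1:**
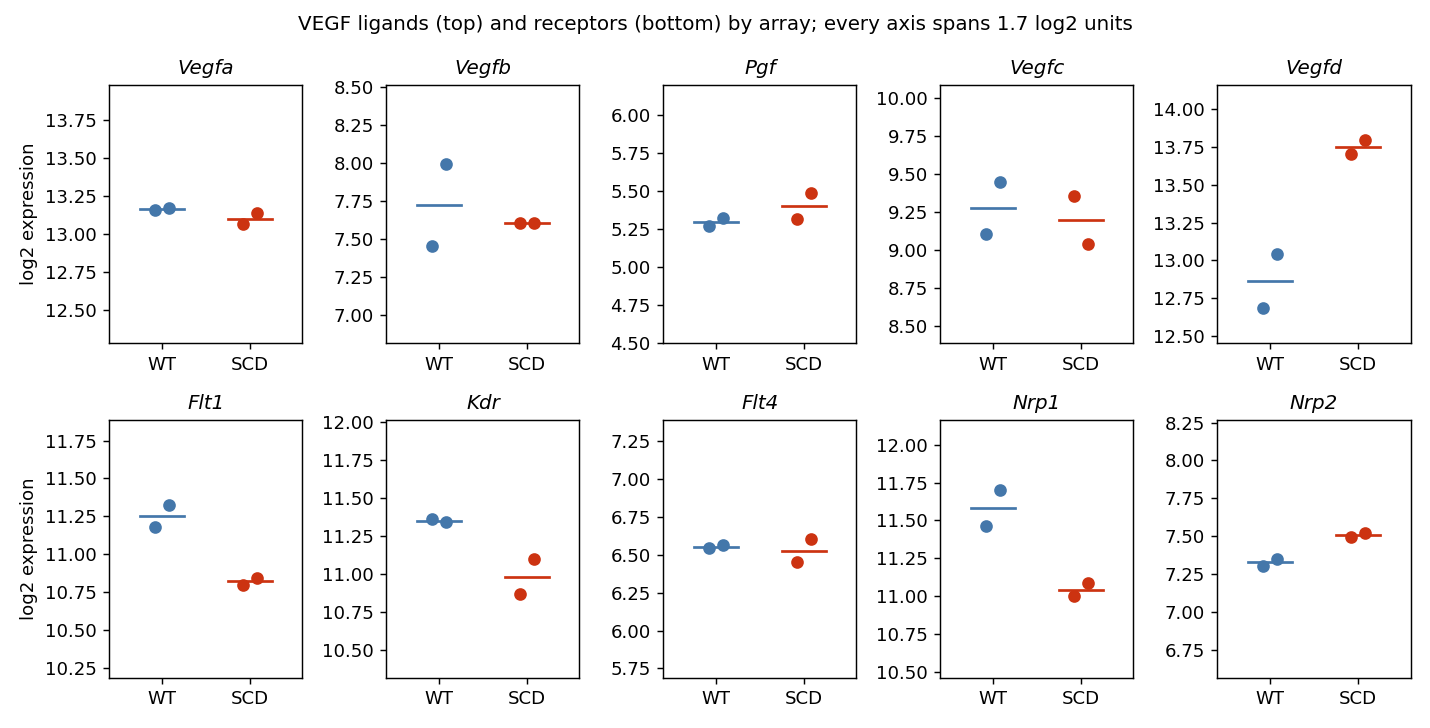
Log2 expression of the 5 VEGF ligand genes (top row) and the 5 receptor genes (bottom row) on each array, WT in blue and SCD in red. Points are arrays and lines are group means; Vegfd is higher on both SCD arrays, and Flt1, Kdr and Nrp1 are lower on both.

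Among the ligands, Vegfd, which encodes VEGF-D, a ligand of VEGFR3 that is abundant in lung, was the only one called. In WT lung its level was 12.69 and 13.05, and in SCD lung 13.70 and 13.79. Both SCD arrays were above both WT arrays, with a gap of 0.65 between the nearest pair, larger than the spread within either group. The group means were 12.87 ± 0.25 and 13.75 ± 0.07 (SD, n = 2), and the difference was 0.88 ± 0.13 (SE; adjusted p = 0.0419, limma). As a fold this is 1.84, with a 95% confidence interval of 1.45 to 2.33. The adjusted p lay close to the threshold: it passed in 9 of 13 other processing settings, over which the difference ranged from 0.61 to 0.88 and the adjusted p from 0.0144 to 0.0781. It missed the threshold without the intensity trend (0.0781), with repeated quantile normalization (0.61; 0.0557), with equal array medians (0.87; 0.0559) and with the exon control shift subtracted (0.68; 0.0683), where the first value is the difference and the last the adjusted p. Among the settings passed, cyclic loess, protein-coding genes alone and quantile normalization over these were added after seeing the data. As Vegfd has 1 probe set, the mean of probe sets and the use of every probe set left its difference unchanged. Leaving out WT replicate 1, SCD replicate 1 or SCD replicate 2 gave differences of 0.70, 0.93 and 0.83 with adjusted p of 0.0503, 0.227 and 0.267, and leaving out WT replicate 2 gave 1.06 (adjusted p = 0.0281).

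Vegfd lies on the X chromosome. The X-inactivation gene Xist read 16.78 and 16.75 on the WT and 16.81 and 16.78 on the SCD arrays, and the Y-linked genes Kdm5d, Uty and Eif2s3y stayed between 4.36 and 4.99 on all 4 arrays. Xist was bright and the Y-linked genes were dim on all 4 arrays, in both groups.

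Vegfa, the principal endothelial growth factor of the alveolus, was bright, with close values in the groups. It read 13.16 and 13.17 in WT and 13.06 and 13.13 in SCD lung. Both SCD arrays were below both WT arrays, but by 0.02 at the nearest pair. The difference of -0.07 ± 0.07 did not pass (adjusted p = 0.713), and its 95% interval of -0.25 to 0.11 corresponds to folds between 0.843 and 1.08. After repeated quantile normalization the difference was -0.44 (adjusted p = 0.0418), and with cyclic loess it was -0.19 (adjusted p = 0.282).

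Vegfb, a VEGFR1 ligand, read 7.45 and 7.998 in WT and 7.61 on both SCD arrays. The SCD values lay between the WT values, and the difference of -0.12 ± 0.20 did not pass (adjusted p = 0.831). Pgf, the placental growth factor gene and also a VEGFR1 ligand, read 5.27 and 5.32 in WT and 5.32 and 5.49 in SCD lung. Its groups overlapped (0.11 ± 0.12; adjusted p = 0.736), and its WT mean of 5.30 was below the negative control median. Vegfc, the main lymphatic growth factor gene, read 9.11 and 9.45 in WT and 9.36 and 9.04 in SCD lung. Its groups overlapped as well (-0.08 ± 0.17; adjusted p = 0.872), and the interval of -0.52 to 0.36 is wide.

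The 5 receptor and co-receptor genes gave 0 calls with limma over all genes. At an unadjusted p under 0.05, 3 of the 5 passed, where 16.7% of all genes did. On 3 of them the SCD arrays were both below the WT arrays, a pattern found in 22.5% of all genes, and on 1, Nrp2, both were above (25.3% of all genes).

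Nrp1, the neuropilin that binds VEGF-A and strengthens its signal through VEGFR2, had the most negative difference of the 10 genes. In WT lung it read 11.46 and 11.70, and in SCD lung 11.001 and 11.09. The nearest arrays of the groups were 0.37 apart, while the WT arrays were spread by an SD of 0.17. The difference was -0.54 ± 0.11 (adjusted p = 0.0882), or 1.45-fold lower, with an interval of -0.82 to -0.25.

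Flt1, which encodes VEGFR1, read 11.18 and 11.32 in WT and 10.80 and 10.85 in SCD lung. The groups stood 0.33 apart at their nearest arrays. Its difference was -0.43 ± 0.09 (adjusted p = 0.0964), or 1.35-fold lower, with an interval of -0.66 to -0.19. Kdr, which encodes VEGFR2, the main signalling receptor, read 11.36 and 11.34 in WT and 10.87 and 11.10 in SCD lung. The WT arrays were close together and the SCD arrays were both lower but further apart. Its difference was -0.37 ± 0.11 (adjusted p = 0.182), or 1.29-fold lower, with an interval of -0.64 to -0.09.

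The calls of these 3 genes turned on the processing. Nrp1 and Flt1 each passed in 5 of 13 other settings. Those were repeated quantile normalization, subtraction of the exon control shift, cyclic loess, protein-coding genes alone and quantile normalization over protein-coding genes. Over all 13 settings their adjusted p ranged from 0.0129 to 0.145 for Nrp1 and from 0.0120 to 0.166 for Flt1, with differences of -0.73 to -0.54 and -0.62 to -0.43. Kdr passed in 1 setting, quantile normalization over protein-coding genes (-0.52; adjusted p = 0.0390). In bulk lung, fewer cells of a type and less RNA per cell cannot be told apart.

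Flt4 and Nrp2, the receptor and the co-receptor of the lymphatic ligands, gave small differences. Flt4, encoding VEGFR3, read 6.54 and 6.57 in WT and 6.45 and 6.60 in SCD lung, so that its groups overlapped (-0.03 ± 0.11, adjusted p = 0.937). Its WT mean of 6.55 was close to the negative control median of 6.43. Nrp2, the co-receptor for VEGF-C and for class 3 semaphorins, read 7.30 and 7.35 in WT and 7.499 and 7.52 in SCD lung. Both SCD arrays were higher, by 0.15 at the nearest pair, but the difference of 0.18 ± 0.10 did not pass (adjusted p = 0.451).

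**Figure D2:**
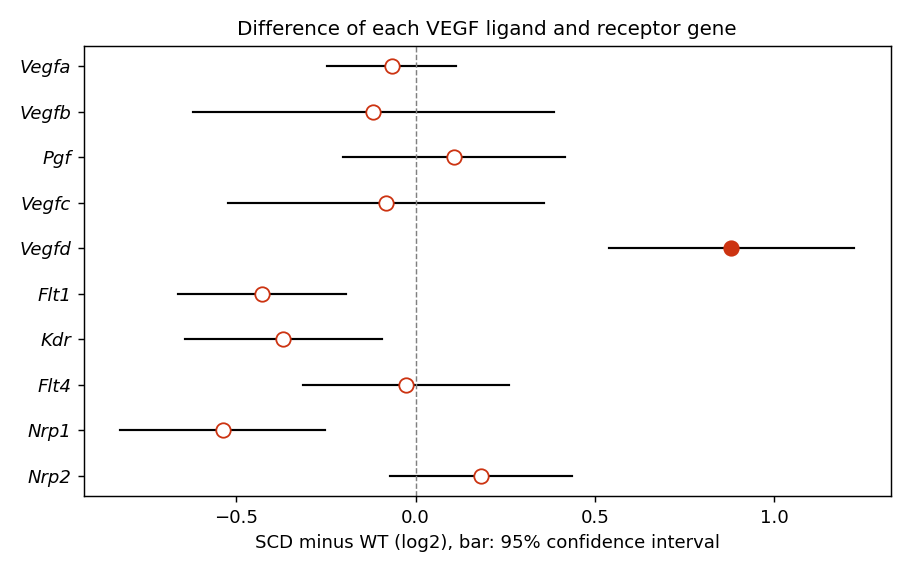
Difference SCD minus WT (log2) of each VEGF ligand and receptor gene, with its 95% confidence interval from limma (n = 2 arrays per group). The filled point, Vegfd at 0.88, is the gene with an adjusted p under 0.05; the intervals of Flt1, Kdr and Nrp1 lie below 0 before adjustment over all genes.

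**Figure D3:**
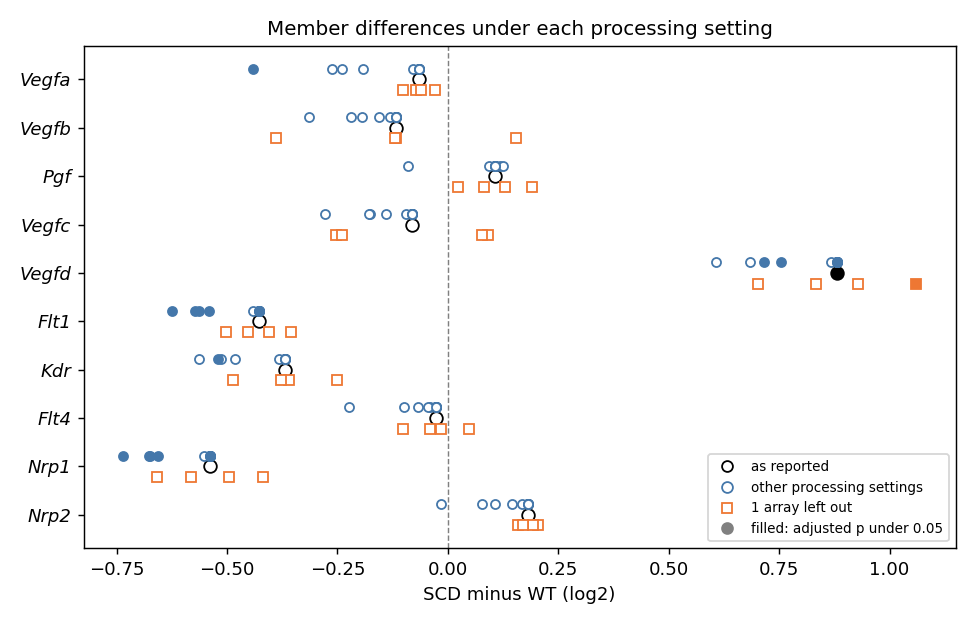
The same differences under every processing setting: black, as reported; blue, other settings; orange squares, with 1 array left out. Filled symbols have an adjusted p under 0.05; Vegfd stays between 0.61 and 1.06, and Nrp1, Flt1 and Kdr stay below 0 throughout.

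The 6 lists of genes around the VEGF receptors held 163 genes, of which 156 had a probe set of their own. Of these, 10 rose, 9 fell and 137 did not pass, so that 12.2% were called, beside 3.10% of all genes tested. Their median difference was 0.03, against 0.002 for all genes. Of the called genes, Tek, Ptprb, Cdh5, Sox17, Hilpda and Apln are counted again in the endothelial marker lists below. The genes tested include many that are not protein-coding. With protein-coding genes alone tested, 30 of the surrounding genes were called, beside 1248 of 19242 genes in all. With WT replicate 1 or WT replicate 2 left out, 11 and 10 were called.

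Receptor partners and extracellular regulators had 4 of 25 genes fall and 0 rise (limma; 3 positive and 8 negative at an unadjusted p under 0.05), with a median of -0.002. Tek, the angiopoietin receptor Tie2 that stabilises vessels, read 12.55 and 12.52 in WT and 10.59 and 10.60 in SCD lung, and fell by 1.94 ± 0.08 (adjusted p = 0.0028). Ptprb, the endothelial phosphatase that dephosphorylates Tie2 and restrains VEGFR2, fell by 1.82 ± 0.08, from 14.39 and 14.54 to 12.64 on both arrays. The arterial ligand gene Efnb2, whose product controls the uptake of VEGF receptors, fell by 1.54 ± 0.09, from 11.37 and 11.41 to 9.79 and 9.93. The differences of these 3 genes were more negative than that of any of the 5 receptor genes. Cdh5, the cadherin of endothelial junctions that associates with VEGFR2, fell by 0.47 ± 0.08 (adjusted p = 0.0491), but missed the threshold without the intensity trend, with equal array medians and with robust eBayes (adjusted p of 0.142, 0.0815 and 0.0692). The VEGF-C processing genes Ccbe1 (0.28 ± 0.11) and Adamts3 (0.08 ± 0.11) did not pass.

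Semaphorin and plexin genes, whose products share the neuropilins with VEGF, rose in 3 of 14 cases and fell in 0 (limma; 4 positive and 4 negative at an unadjusted p under 0.05), with a median of 0.08. Plxna2, a neuropilin-associated semaphorin receptor gene, read 8.96 and 9.50 in WT and 10.73 and 10.69 in SCD lung, and rose by 1.48 ± 0.19 (adjusted p = 0.0262). Its relative Plxna4 rose by 0.93 ± 0.09 (adjusted p = 0.0138), from 7.78 and 7.83 to 8.73 and 8.74. Sema3f, a repulsive ligand of Nrp2, rose by 0.62 ± 0.10 (adjusted p = 0.0453), but missed the threshold in 5 of 13 other settings (adjusted p of up to 0.0907). Plxnd1, the endothelial plexin, did not pass (-0.55 ± 0.10; adjusted p = 0.0611).

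The intracellular signalling genes were the largest list, and 2 of its 42 measured members rose, 0 fell and 40 did not pass (limma; 6 positive and 4 negative at an unadjusted p under 0.05; median 0.08). Hspb1, the small heat shock protein phosphorylated downstream of VEGFR2 in actin remodelling, rose by 0.90 ± 0.10 (adjusted p = 0.0166), from 7.14 and 7.13 to 8.02 and 8.07. Dab2, an endocytic adaptor that takes part in receptor uptake, rose by 0.60 ± 0.09 (adjusted p = 0.0350), but missed the threshold in 4 of 13 settings (adjusted p of up to 0.0783).

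Genes that VEGF is known to induce in endothelium went both ways, with a median of 0.01. Of 31, 4 were higher, 2 lower and 25 did not pass (limma; 8 positive and 6 negative at an unadjusted p under 0.05). F3, which encodes tissue factor, rose by 1.35 ± 0.10 (adjusted p = 0.0078), from 8.62 and 8.63 to 10.03 and 9.92. Rcan1, the calcineurin inhibitor gene switched on by VEGF through NFAT, read 9.39 on both WT arrays and 10.60 and 10.34 in SCD lung, a rise of 1.08 ± 0.12 (adjusted p = 0.0164). Cd34, a sialomucin of capillary and tip cells, rose by 1.11 ± 0.13 and Apln, the apelin gene of tip cells and aerocytes, by 0.92 ± 0.09. The other direction was taken by Hey1, a Notch target of arterial endothelium, which fell by 0.95 ± 0.09 (adjusted p = 0.0110), and by Esm1, a tip cell proteoglycan gene, which fell by 0.76 ± 0.11 (adjusted p = 0.0334). The Notch ligand gene Dll4 (-0.44 ± 0.14; adjusted p = 0.220) and the early response genes Egr1 (0.01 ± 0.12) and Egr3 (-0.03 ± 0.11) did not pass.

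Hypoxia genes, which include the transcription factors that induce Vegfa, had 1 of 19 rise and 2 fall, with a median of 0.02. Of the list, 6 genes were positive and 2 negative at an unadjusted p under 0.05 (limma). Epas1, the HIF2 alpha gene of endothelium, fell by 0.36 ± 0.05 (adjusted p = 0.0334), from 16.48 and 16.47 to 16.12 and 16.11, and missed the threshold without the intensity trend, with equal array medians and with robust eBayes (adjusted p of 0.184, 0.0734 and 0.0713). Hilpda, a lipid droplet gene induced by hypoxia and a marker of capillary cells, fell by 1.09 ± 0.10, and the hypoxia-induced gene Ndrg1 rose by 0.90 ± 0.11. Hif1a did not pass (0.48 ± 0.09; adjusted p = 0.0702). Of 25 genes listed as transcription factors of VEGF receptor genes, whose binding was not examined, 1 fell, 0 rose and 24 did not pass. At an unadjusted p under 0.05 (limma), 2 were positive and 6 negative, and the median was -0.03. The gene that fell was Sox17, an arterial factor, by 0.95 ± 0.11 (adjusted p = 0.0192). Ets1, an activator of Flt1 and Kdr, did not pass (-0.50 ± 0.09; adjusted p = 0.0608), nor did the lymphatic factor Prox1 (-0.07 ± 0.11).

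**Figure D4:**
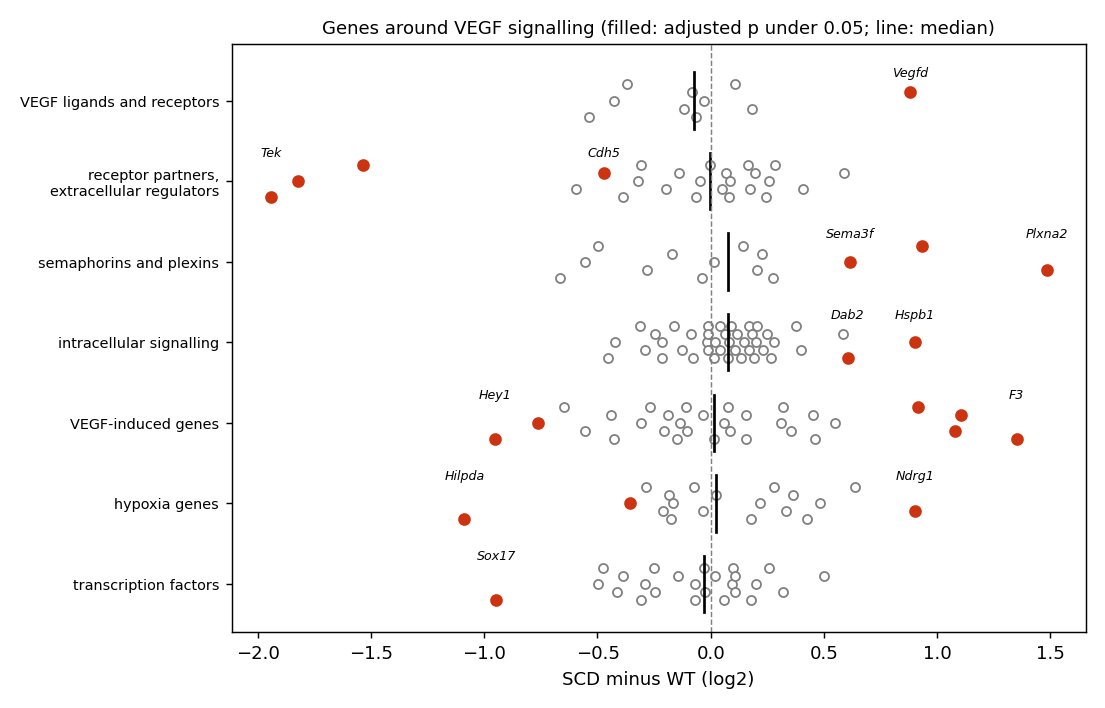
Difference SCD minus WT (log2) of every measured gene in the VEGF set and the 6 surrounding lists; filled points have an adjusted p under 0.05 and vertical lines are list medians. Tek, Ptprb and Efnb2 stand at the left among the receptor partners, and Plxna2 at the right among the plexins.

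Some cell type markers differed between the groups while most did not pass, and their part in the VEGF gene differences was not tested. Summed signals, given as log2, are set mainly by the brightest genes of a list, so that the median is given beside them. Of 14 pan-endothelial markers, 4 fell, 0 rose and 10 did not pass (limma; 1 positive and 5 negative at an unadjusted p under 0.05), with a median of -0.12. Their summed signal was 16.94 and 16.98 in WT and 16.48 and 16.52 in SCD lung. Differences ran from that of Tek to 0.65 ± 0.16 for the junction gene Cldn5, which did not pass, and Pecam1, the endothelial adhesion molecule CD31, did not pass either (0.24 ± 0.10). General capillary markers fell in 5 of 9 cases and rose in 0 (limma; 1 positive and 7 negative at an unadjusted p under 0.05), with a median of -1.09 and summed signals of 15.92 and 15.94 in WT against 15.03 and 15.12 in SCD lung. They ran from Aplnr, the apelin receptor gene, at -3.31 ± 0.21 to Sema3c at 0.22 ± 0.08, which did not pass.

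Of 8 aerocyte markers, the other class of alveolar capillary, 2 rose and 0 fell (limma; 4 positive and 1 negative at an unadjusted p under 0.05), with a median of 0.22. Their summed signals were 14.22 and 14.24 in WT and 14.77 and 14.78 in SCD lung. Car4, the carbonic anhydrase of aerocytes, rose by 1.18 ± 0.09, from 12.32 and 12.37 to 13.42 and 13.63, while Ednrb, an endothelin receptor gene of the same cells, did not pass (-0.25 ± 0.09). Lymphatic markers had 1 of 8 rise, Lyve1 by 0.92 ± 0.10, with Prox1 the lowest of the list. Among them, 3 were positive and 0 negative at an unadjusted p under 0.05 (limma). The median was 0.27 and the summed signals were 14.00 and 14.19 in WT and 14.86 and 14.89 in SCD lung; Lyve1 is also known from interstitial macrophages. WT means below the negative control median were found for 1 of the 14 pan-endothelial, 0 of the 9 general capillary, 2 of the 8 aerocyte and 3 of the 8 lymphatic markers, Prox1 among them.

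For the sources of the ligands, 1 of 9 alveolar type 1 markers rose, Igfbp2 by 0.91 ± 0.10, and 0 fell (limma; 2 positive and 1 negative at an unadjusted p under 0.05), with the lowest difference that of Akap5 (-0.63 ± 0.11; adjusted p = 0.0566). Their median was 0.07 and their summed signals were 16.82 and 16.90 in WT and 17.02 and 17.03 in SCD lung. Of 9 alveolar fibroblast markers, Scn7a fell by 1.05 ± 0.06 and 0 rose (limma; 1 positive and 3 negative at an unadjusted p under 0.05), with a highest difference of 0.66 ± 0.19 for Tcf21, which did not pass. That list had a median of -0.17 and summed signals of 16.14 and 16.31 in WT and 15.85 and 15.74 in SCD lung. Cardiac muscle markers had 2 of 8 rise, macrophage and monocyte markers 2 of 10 rise and 1 fall, platelet markers 2 of 7 rise and pericyte and smooth muscle markers 1 of 9 rise. Their highest differences were those of Nppa (2.88 ± 0.13), Ly6c2 (1.55 ± 0.05), Ppbp (3.31 ± 0.19) and Cnn1 (0.96 ± 0.13), and their lowest those of Ryr2 (0.03), Marco (-1.48), Clec1b (-0.004) and Pdgfrb (-0.54). The medians were 0.43 for cardiac muscle, 0.42 for macrophages and monocytes, 0.17 for platelets and 0.13 for pericytes and smooth muscle. In the same order, 5, 7, 2 and 2 genes were positive and 0, 1, 0 and 1 negative at an unadjusted p under 0.05 (limma). Cnn1 was the only call of its list, and it missed the threshold without the intensity trend (adjusted p = 0.0523) and with the exon control shift subtracted (adjusted p = 0.0548). The summed signals of these lists went, from WT to SCD lung, from 13.86 and 13.76 to 14.68 and 14.76 for cardiac muscle, from 15.70 and 15.75 to 17.02 and 17.00 for macrophages and monocytes, from 10.56 and 10.75 to 12.82 on both arrays for platelets, and from 12.21 and 12.46 to 12.73 and 12.75 for pericytes and smooth muscle. The brightest gene of the macrophage list was Ly6c2, with means of 15.19 and 16.74, and that of the platelet list was Ppbp, with 9.19 and 12.50. Of the 9 alveolar type 2 markers 0 passed (limma; 0 positive and 2 negative at an unadjusted p under 0.05), from Lpcat1 at -0.51 to Sftpd at 0.38. Of these, Sftpc could not have passed, as it read 19.93, the highest value in the table, on all 4 arrays.

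**Figure D5:**
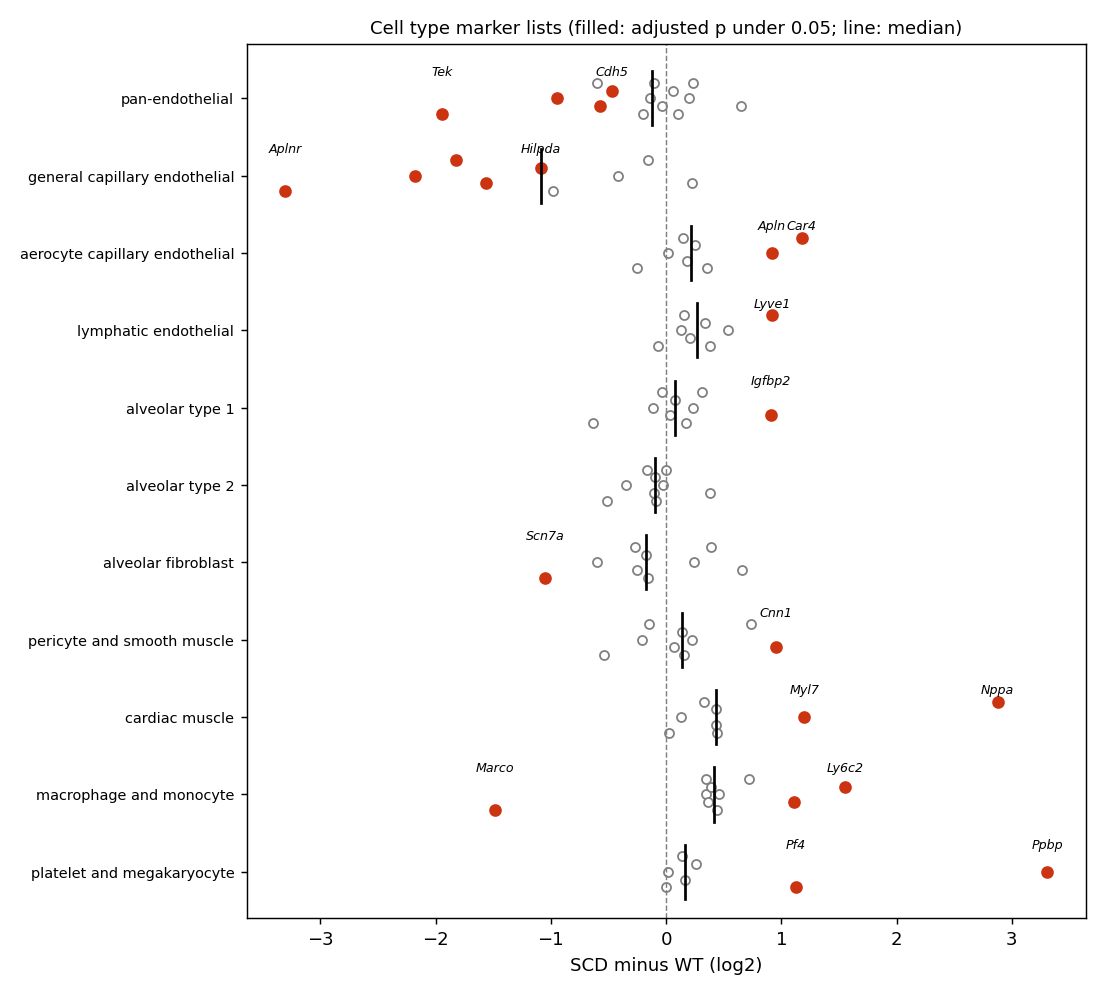
Difference SCD minus WT (log2) of every measured gene in 11 cell type marker lists; filled points have an adjusted p under 0.05 and vertical lines are list medians. General capillary markers lie furthest to the left (median -1.09). Medians are above 0 for aerocyte, lymphatic, alveolar type 1, pericyte and smooth muscle, cardiac muscle, macrophage and monocyte, and platelet markers.

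The profile of Vegfd over the 4 arrays, centred on its mean, was set against those of 18281 other protein-coding genes. The nearest by Euclidean distance were Btg1, an antiproliferative gene, Cfap43, a gene of motile cilia, and Hcst, the DAP10 adaptor gene of NK and T cells. Their differences were 0.86 ± 0.17, 0.90 ± 0.16 and 0.89 ± 0.16, and none of the 3 passed (adjusted p of 0.0787, 0.0578 and 0.0631). The choice of the nearest profiles fixes that these differences are like that of Vegfd.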

How the data were processed

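The deposited values, 1 per probe set and array, are log2 expression; the scale was read from the values (1.72 to 19.93) and is not written in the table. Per the submitters' processing notes, RMA, Partek and the Affymetrix Expression Console were used, with versions, roles and order not given. Per the labels' protocols, TRIzol RNA was biotin-labelled with a 3' in vitro transcription kit. Groups and replicate numbers came from sample titles. Platform annotation, updated to RefSeq symbols (GRCm38.p6), paired 31269 of 65956 transcript clusters with 1 gene, 1481 with several and 33206 with none. Each gene took its probe set with the highest mean, and Nrp1 was kept although its probe set names Mir1903 too. The comparison of SCD with WT used limma (3.58.1; R 4.3.3; lmFit, eBayes with an intensity trend, group as the only term), two-sided, with no filter on dim genes. The code was tested on simulated data. No array batch is given in the sources used here, and background correction could not be varied from these values.

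The 10 VEGF genes and the gene lists were chosen with earlier results of these data known, so that list counts are descriptions. Named genes were these 10, up to 6 called genes of each surrounding list, the lowest and highest of each marker list and the 3 genes nearest to a called VEGF gene. Any further gene that is named was picked with its values known. Alternatives were a replicate block, no trend, filters on the dimmest 25% and 50%, mean of probe sets, repeated quantile normalization, equal medians, removal of the exon control shift (0.20), robust eBayes, every probe set, a threshold of 0.1 and each array left out. Cyclic loess, protein-coding genes alone and quantile normalization over these were added after seeing the data. Precision is limited by the number of arrays.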

Additional observations from a re-analysis of the deposited data

How the results depend on the processing

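As reported, 1 of the 10 VEGF genes, 952 of all genes and 19 of 156 surrounding genes were called. The VEGF count was 0 with equal array medians and also without the intensity trend (limma; 4 at an unadjusted p under 0.05 in both), 2 with the exon control shift removed, 3 with repeated quantile normalization, 3 with cyclic loess, 3 with protein-coding genes alone, 3 at a threshold of 0.1 and 4 with quantile normalization over protein-coding genes. The threshold of 0.1 called 1757 genes in all. Protein-coding genes alone gave 30 surrounding genes, and quantile normalization over them 35. With 1 array left out, where the lone sample is taken to vary like the other group, the counts ranged from 0 to 1 for VEGF genes, from 0 to 786 for all genes and from 0 to 11 for surrounding genes. Without WT replicate 1, 508 genes were called. The split of all calls, 757 higher and 195 lower, became 525 and 575 with the exon control shift removed, which moved the median of all genes to -0.19, 627 and 348 with repeated quantile normalization, and 740 and 565 with quantile normalization over protein-coding genes. Negative differences of Vegfa, Nrp1, Flt1 and Kdr stayed negative in every setting run, and Vegfd stayed positive. Pgf reversed to -0.090 and Nrp2 to -0.015 with the exon control shift removed, a setting that subtracts 0.20 from the difference of every gene alike and so leaves each gene where it was relative to the median of all genes. With 1 array left out, Vegfb ranged from -0.39 to 0.15, Vegfc from -0.25 to 0.091 and Flt4 from -0.10 to 0.047. Pgf has no value without the dimmest 50% of genes, as it is among those left out. The cause of the other changes was not tested.

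The replicate numbers are shared by the groups, but deviations of same-numbered arrays from their group means correlated at -0.0026 over genes. That value gave no sign of a deviation shared over genes. With so few arrays it cannot tell whether the numbers pair the samples. With the replicate block, 1 VEGF gene, 970 genes in all and 16 surrounding genes were called; Vegfd had an adjusted p of 0.0196, while Esm1, Dab2 and Sema3f had 0.0523, 0.0576 and 0.0655.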
